A study of Mus musculus with 6 samples.

Results

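The genes described here build and run the primary cilium, the single antenna-like organelle that most resting cells extend from a modified centriole. They were chosen by symbol, as genes named Ift, Bbs, Nphp or Tctn with a number, plus 15 others named one by one (motors, 3 more transport or BBSome subunits, transition zone and basal body genes). Of the 19938 genes that could be named by a single symbol on the array, 40 met this rule. Arl13b, a ciliary membrane GTPase on the list of names, was not measured. The set was proposed with the difference between the genotypes in view, so for these 40 genes that difference is given as a description, and passing the threshold of the test across all genes is reported without being read as evidence.

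The samples were 6 colon tumours of 20-week-old mice, 3 for each of 2 genotypes, profiled on arrays. Every mouse had the ApcMin/+ genotype, in which a truncated Apc tumour suppressor leads to intestinal tumours, and the hypomorphic chip allele of Dnmt1, the maintenance DNA methyltransferase. They were hybrids of a C57BL/6 and a 129Sv4 parent and had received 2% (w/v) dextran sodium sulfate, which injures the colon and promotes tumours, from 6 weeks of age. The control tumours were Dnmt1chip/+; ApcMin/+ and the hypomethylated tumours Dnmt1chip/c; ApcMin/+, in which the second Dnmt1 allele is a knockout. The sample descriptions share a number among the 3 hypomethylated tumours and among 2 of the 3 control tumours, and separate mice are not stated. The p-values therefore measure only the spread between these tumours, and if a shared number marks a mouse, differences between mice and between genotypes cannot be told apart. Dnmt1 itself was at 0.44 ± 0.07 (SD, n = 3) in the control and -0.43 ± 0.05 (SD, n = 3) in the hypomethylated tumours. All values are on a log2 scale, a base inferred from the values, and centred for each probe set on its median over the 6 arrays. Levels are lost by this, so whether a gene or a cell type marker was present could not be checked, and 6 arrays limit the precision. Where the groups do not overlap, centring also gives the lowest tumour of one group and the highest of the other the same value with opposite sign.

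Cilia are assembled by intraflagellar transport (IFT). IFT-B trains are pulled from the base to the tip by kinesin-II, and IFT-A and the dynein-2 motor bring them back; the BBSome, a coat of Bardet-Biedl syndrome proteins, rides on these trains and carries membrane proteins out of the cilium. The transition zone at the base acts as a gate. In mammals Hedgehog signalling passes through the cilium, and cells take the cilium down when they enter the cell cycle. Motile cilia use the same transport but add their own dynein arms and spokes. Many ciliary genes share a promoter element, the X-box, which RFX transcription factors bind.

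The X-box was looked for in RefSeq promoter windows (GRCm38.p6, 250 bases before to 50 after the start site), because it is a feature of sequence that the choice by symbol and the expression values did not use. It was spelled GTNNCC, then 0 to 3 of any base, then NGNAAC, on both strands; many matches read as a match on either strand. Of the 40 genes 35 had a window (Ift80, Ift81, Ift122, Dync2li1 and Tmem67 did not), and 11 of these, 31.4%, held a match. Over all genes of the promoter table the share was 5.94%, and over those on the array with 1 symbol 6.32%. Matches were found both among genes that passed the expression test (6 of 22) and among those that did not (5 of 13). The following 5 windows show matches that lie wholly before the start site, 3 from genes that were lower in the hypomethylated tumours and 2 from genes that did not pass. Each runs 5′ to 3′ along the gene's own strand, with the match in capitals.
Ift57: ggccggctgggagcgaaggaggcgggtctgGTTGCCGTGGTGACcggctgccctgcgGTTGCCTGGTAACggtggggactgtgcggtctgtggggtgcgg
Tctn3: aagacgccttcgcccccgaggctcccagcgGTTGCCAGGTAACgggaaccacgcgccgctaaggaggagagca
Mks1: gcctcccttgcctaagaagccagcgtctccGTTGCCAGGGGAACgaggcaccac
Bbs7: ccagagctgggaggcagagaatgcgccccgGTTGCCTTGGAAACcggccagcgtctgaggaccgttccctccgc
Tctn2: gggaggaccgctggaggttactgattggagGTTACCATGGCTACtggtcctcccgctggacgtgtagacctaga
The Ift57 window, chr16:49699177-49699276 on the plus strand, holds 2 matches, the first beginning 87 bases before the start site. That of Tctn3 is chr19:40612329-40612401 on the minus strand, with the match 140 bases before the start. The Mks1 window is chr11:87853161-87853214 on the plus strand (24 bases), the Bbs7 window chr3:36613467-36613540 on the minus strand (121 bases) and the Tctn2 window chr5:124598657-124598730 on the plus strand (62 bases). Wdr19, Ttc8 and Bbs2, which had the largest expression differences, had no match in their windows. A CCAAT box on either strand was present in 21 of the 37 windows of these genes, 56.8%, against 37.4% of all windows in the table. The windows held a median of 20 CG dinucleotides, from 3 in Cc2d2a to 35 in Ift140, against a median of 15 for genes on the array with 1 symbol. The data used here hold no methylation values, and the name hypomethylated stands for the Dnmt1chip/c genotype.

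The 40 genes were lower in the hypomethylated tumours almost throughout. All 40 differences were below 0, from -1.09 for Wdr19 to -0.01 for Nphp4, with a median of -0.42, where the median over all genes was -0.01. Of the 40 genes 27 passed as lower at an adjusted p of 0.05 in limma and none as higher (0 also at an unadjusted p under 0.05 and with robust eBayes); over all genes 21.3% passed as lower and 10.7% as higher, 32% in all. In 33 of the 40 every hypomethylated tumour lay below every control tumour, against 28.5% of all genes. The reverse order was found in none of the 40 and in 17.9% of all genes. The signs of the smallest differences, Nphp4 and Kif7, turned under other settings: Nphp4 was at 0.01 under quantile normalization and under median centring of the arrays, 0.03 when control replicate 1 was left out and 0.05 when control replicate 3 was, and Kif7 was at 0.01 when control replicate 3 was left out. Among genes taken, from the step of their printed values, to have been at 8 or above on the log2 scale before centring, 15 of 23 members of the set were lower, as were 33.4% of all such genes. In such bulk samples fewer cells that express a gene and less RNA per cell cannot be told apart.

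**Figure D1:**
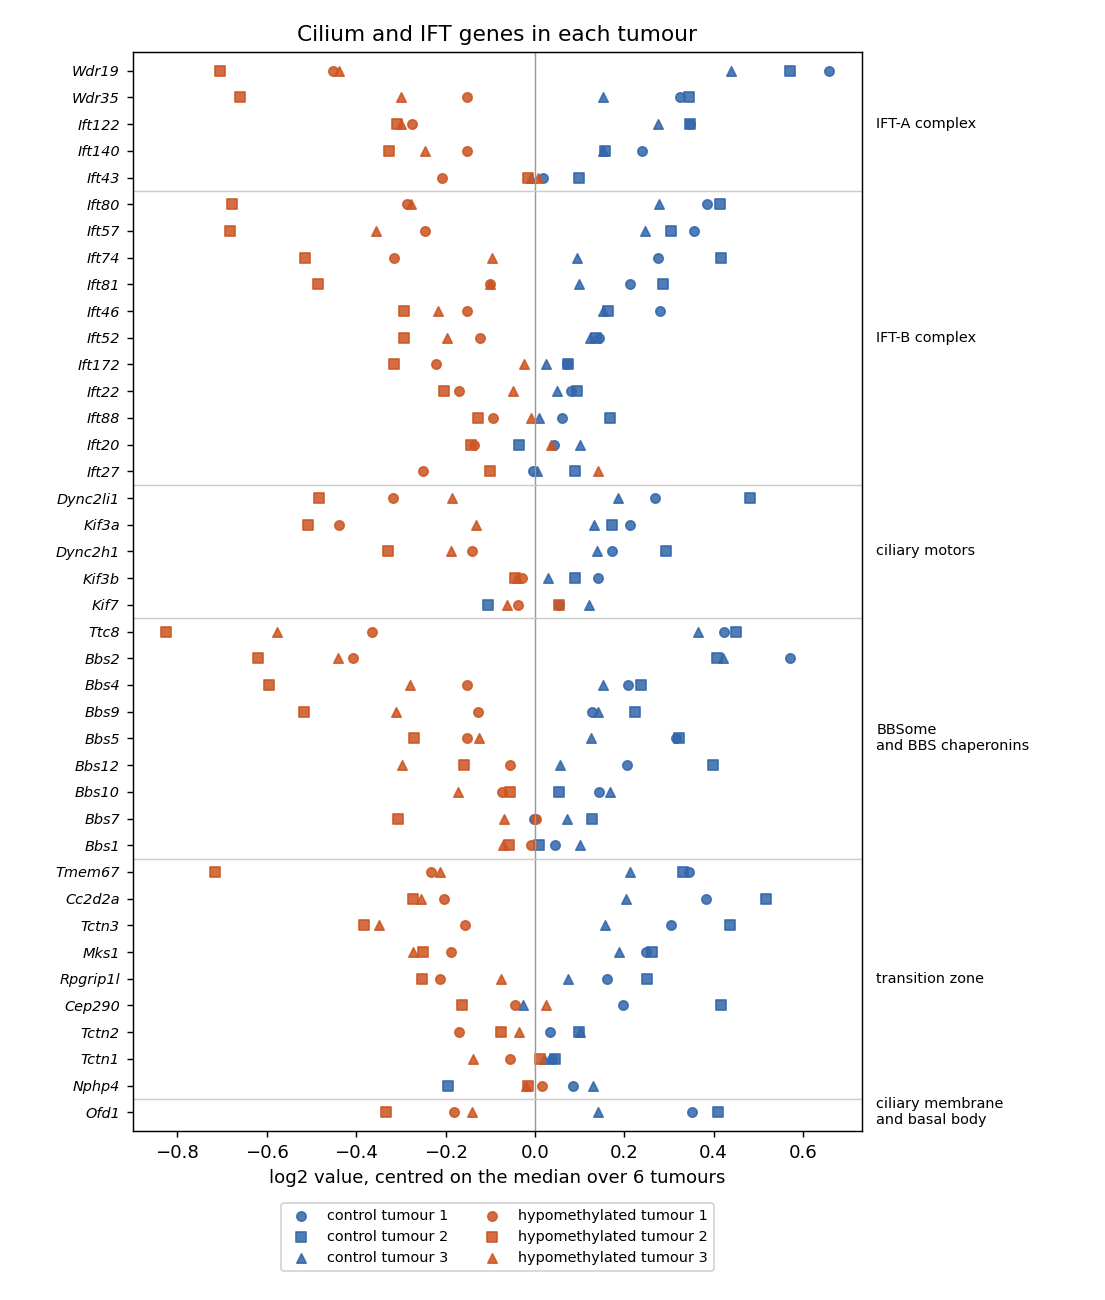
Centred log2 value (x axis) of each of the 40 genes (rows, grouped by complex) in 3 control tumours (blue) and 3 hypomethylated tumours (orange), with a marker shape for each replicate. Blue points lie to the right of orange ones in 33 genes, and the orange squares, hypomethylated replicate 2, are the leftmost orange points in 30 of the 40.

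The IFT-A complex, which drives return transport and admits membrane proteins to the cilium, had the lowest median of the complexes, -0.62. That median covers its 5 genes among the 40, of which 4 passed as lower. Subunits under other symbols are described further on. Wdr19, which encodes the core subunit IFT144, was at 0.66, 0.57 and 0.44 in the control tumours (replicates 1 to 3) and at -0.45, -0.70 and -0.44 in the hypomethylated tumours. The groups stood far apart, and the difference of -1.09 ± 0.09 (SE), 2.12-fold, was the largest among the 40. Only 1.22% of all genes had a lower difference. Ift122, another core subunit, was at 0.35, 0.35 and 0.28 in the control and -0.28, -0.31 and -0.30 in the hypomethylated tumours. Its tumours barely varied within a genotype, with SDs of 0.04 and 0.02 (n = 3 each), and the difference was -0.62 ± 0.05 (SE). Ift140 was at 0.24, 0.16 and 0.15 against -0.15, -0.33 and -0.25, a difference of -0.42 ± 0.07. The groups did not overlap here either. Wdr35, which encodes IFT121, differed by -0.64 ± 0.13, with hypomethylated replicate 2 lowest at -0.66. Ift43, a small peripheral subunit, differed by -0.11 ± 0.08 with overlapping groups and did not pass.

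In the IFT-B complex, which carries cargo to the ciliary tip, 7 of 11 measured genes passed as lower, with a median of -0.34. Ift80, whose product sits at the periphery of the complex and which is mutated in a human skeletal ciliopathy, was at 0.38, 0.41 and 0.28 in the control and -0.29, -0.68 and -0.28 in the hypomethylated tumours. Ift57, another peripheral subunit and one of the genes with an X-box match above, was at 0.36, 0.31 and 0.25 against -0.25, -0.68 and -0.36. In both genes the groups were apart and hypomethylated replicate 2 was well below the other two. Their differences were -0.77 ± 0.12 and -0.73 ± 0.11 (SE), or 1.71-fold and 1.66-fold. Ift46, a core subunit, was at 0.28, 0.16 and 0.15 against -0.15, -0.29 and -0.22, a difference of -0.42 ± 0.07. Its hypomethylated tumours were more even, with an SD of 0.07 (n = 3) against 0.23 for Ift80 and for Ift57.

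Among the other IFT-B subunits Ift74 and Ift81, whose products pair to bind tubulin, differed by -0.57 ± 0.13 and -0.43 ± 0.12 (SE), and Ift52 by -0.34 ± 0.06. Ift22 passed with a small difference of -0.22 ± 0.06. The calls of Ift81 and Ift22 were not stable: that of Ift81 was lost without control replicate 1 or control replicate 2, and that of Ift22 under quantile normalization, under median centring and without any one tumour except hypomethylated replicate 3. Ift172, the largest subunit, had non-overlapping groups but did not pass, at -0.24 ± 0.08; without hypomethylated replicate 3 it differed by -0.33 and passed. Ift88, the subunit mutated in the widely used orpk mouse, differed by only -0.16 ± 0.07. Ift20, which also works at the Golgi, and Ift27, a small GTPase, were at -0.12 ± 0.07 and -0.10 ± 0.10 with overlapping groups. Differences among these 11 genes of a single complex thus ran from -0.77 to -0.10.

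The motors differed among themselves in the same way. Dync2li1, the light intermediate chain of dynein-2, was at 0.27, 0.48 and 0.19 in the control and -0.32, -0.48 and -0.19 in the hypomethylated tumours. Dync2h1, the heavy chain, was at 0.17, 0.29 and 0.14 against -0.14, -0.33 and -0.19. Kif3a, a motor subunit of kinesin-II, was at 0.21, 0.17 and 0.13 against -0.44, -0.51 and -0.13. None of these genes had overlapping groups, but hypomethylated replicate 3 lay nearer to the control tumours than the others for Kif3a. Their differences were -0.64 ± 0.11, -0.42 ± 0.07 and -0.53 ± 0.10 (SE). Kif3b, the partner of Kif3a in the same motor, differed by -0.12 ± 0.05 and did not pass. Kif7, a kinesin of the ciliary tip that organises Hedgehog signalling, differed by -0.04 ± 0.08 with overlapping groups.

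Of the 9 BBSome and chaperonin-like genes 7 passed as lower, with a median of -0.44. Ttc8, which encodes BBS8, was at 0.42, 0.45 and 0.36 in the control and -0.36, -0.83 and -0.58 in the hypomethylated tumours. Bbs2, a core subunit, was at 0.57, 0.41 and 0.42 against -0.41, -0.62 and -0.44. These 2 genes were, after Wdr19, the lowest of the 40, at -1.002 ± 0.114 and -0.96 ± 0.08 (SE), 2.00-fold and 1.94-fold. Bbs5, which binds membrane lipids, was at 0.32, 0.32 and 0.13 against -0.15, -0.27 and -0.13, a difference of -0.44 ± 0.08. Bbs4 and Bbs9, further subunits of the coat, differed by -0.54 ± 0.11 and -0.48 ± 0.10. Bbs7 (-0.19 ± 0.09) and Bbs1 (-0.10 ± 0.05), also subunits, did not pass. Bbs10 and Bbs12, which encode chaperonin-like proteins that help assemble the BBSome, differed by -0.22 ± 0.06 and -0.39 ± 0.10. Both of these calls depended on single tumours: Bbs10 no longer passed when control replicate 1, control replicate 3 or hypomethylated replicate 3 was left out, and Bbs12 when any one tumour other than control replicate 3 or hypomethylated replicate 1 was.

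**Figure D2:**
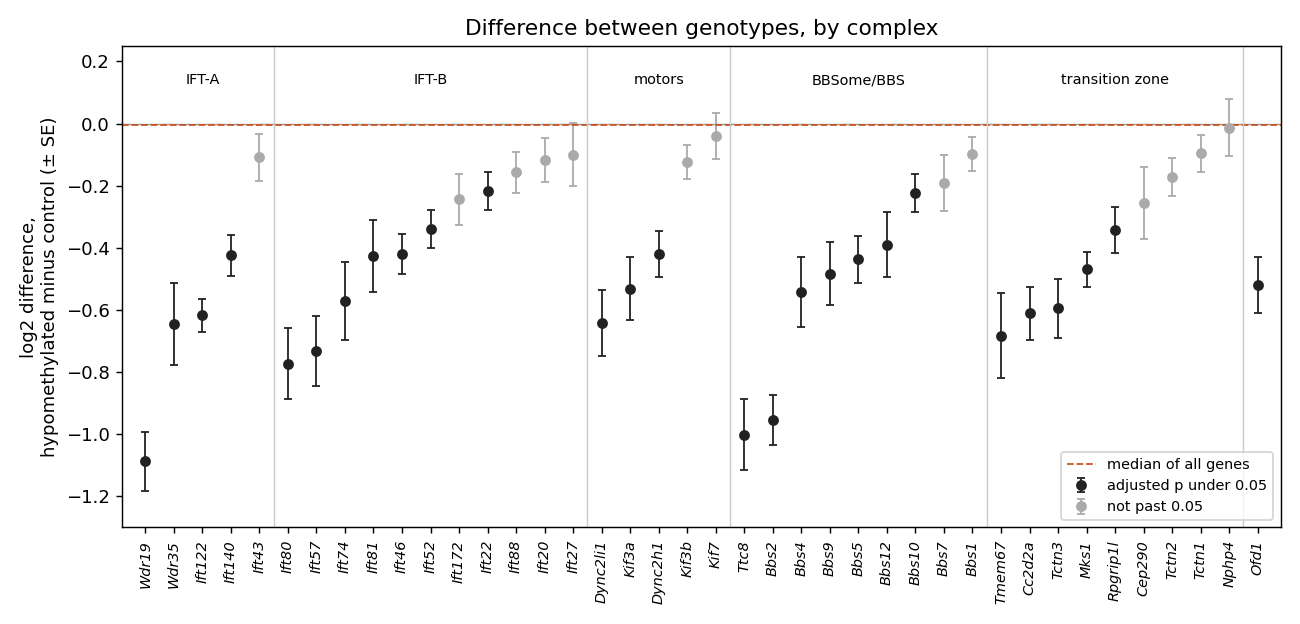
Log2 difference, hypomethylated minus control, with its SE from limma (y axis), for each of the 40 genes (x axis), ordered within complexes; the rightmost gene is the basal body gene Ofd1, black points passed an adjusted p of 0.05 and the dashed line is the median of all genes. Each complex spans a range, from -1.09 to -0.11 in IFT-A and from -1.002 to -0.10 in the BBSome group.

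At the ciliary gate 5 of 9 transition zone genes passed as lower, with a median of -0.34. Mks1, a Meckel syndrome gene, was at 0.25, 0.26 and 0.19 in the control and -0.19, -0.25 and -0.27 in the hypomethylated tumours. Cc2d2a was at 0.38, 0.52 and 0.20 against -0.20, -0.27 and -0.25. Tctn3, a tectonic, was at 0.31, 0.44 and 0.16 against -0.16, -0.38 and -0.35. The groups were apart in all 3, with differences of -0.47 ± 0.06, -0.61 ± 0.09 and -0.59 ± 0.09 (SE), and control replicate 3 was the control nearest to the hypomethylated tumours. Tmem67, a membrane receptor-like protein of the gate, differed by -0.68 ± 0.14, with hypomethylated replicate 2 far below at -0.72. Rpgrip1l, a scaffold of the zone, differed by -0.34 ± 0.07. The other tectonics, Tctn2 and Tctn1, were at -0.17 ± 0.06 and -0.10 ± 0.06, and Nphp4 at -0.01 ± 0.09; none passed. Cep290, which links membrane and microtubules, was at -0.26 ± 0.12 with overlapping groups and did not pass, and was at -0.37 and passed without control replicate 3. Ofd1, an X-linked gene of centriolar satellites and the basal body, was at 0.35, 0.41 and 0.14 against -0.18, -0.33 and -0.14, a difference of -0.52 ± 0.09.

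The tumours of a genotype were not interchangeable. Over the 40 genes the mean centred value was 0.213, 0.234 and 0.140 in control replicates 1 to 3 and -0.177, -0.325 and -0.171 in hypomethylated replicates 1 to 3. Hypomethylated replicate 2 was the lowest of its group in 30 of the 40 genes, where it was so in 29.8% of all genes, and control replicate 3 was the lowest control in 30, where it was so in 32.7%. Without hypomethylated replicate 2, 25 of the 40 genes and 16.2% of all genes passed as lower, and the median difference of the 40 was -0.38. The median SD within a genotype was 0.11 for these genes and 0.10 for all genes.

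The remaining IFT subunits carry symbols that the rule did not match. They do not enter the choice of the 40 genes, but they are measured in the same tumours. Their list, like the other lists below, was drawn up with earlier results of these data known. Of 7 measured, 3 passed as lower, against 21.3% of all genes, and none as higher (0 higher also at an unadjusted p under 0.05 and with robust eBayes). The median of the 7 was -0.12. Ttc26, which encodes the IFT-B subunit IFT56, was at 0.38, 0.50 and 0.24 in the control and -0.35, -0.55 and -0.24 in the hypomethylated tumours. The difference was -0.76 ± 0.10 (SE; limma, adjusted p = 0.00209). Ttc21b, which encodes the IFT-A subunit IFT139, was at 0.25, 0.30 and 0.18 against -0.24, -0.42 and -0.18 and fell by 0.52 ± 0.08 (limma, adjusted p = 0.00311). Cluap1, which encodes IFT38, was at 0.33, 0.27 and 0.14 against -0.14, -0.35 and -0.16 and fell by 0.47 ± 0.08 (limma, adjusted p = 0.00603). The groups did not overlap in these 3 genes. Traf3ip1 (IFT54), Ttc30a1 and Ttc30b (IFT70 paralogues, whose probes could share transcripts) and Hspb11 (IFT25) were at -0.04, -0.09, -0.12 and -0.02 with overlapping groups, and did not pass. Ttc30b ranged from -0.41 to 0.41 among the hypomethylated tumours alone.

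Other motor subunits were lower in 5 of 9 cases, with none higher (0 at an unadjusted p under 0.05 and with robust eBayes), and in 3 without control replicate 1. Over all genes 21.3% were lower. Wdr34, an intermediate chain of dynein-2, was at -0.49 ± 0.06 (SE; limma, adjusted p = 0.00120), Kifap3, the adaptor that joins kinesin-II to cargo, at -0.43 ± 0.06 (adjusted p = 0.00259) and Kif3c, an alternative kinesin-II subunit, at -0.39 ± 0.07 (adjusted p = 0.00723). Among partners of the BBSome and carriers of ciliary membrane proteins 6 of 14 were lower and none higher (1 at an unadjusted p under 0.05 and 0 with robust eBayes). Under quantile normalization, with array weights and among genes taken to be at 8 or above 1 passed as higher. Of the 14 genes 12 were taken to be at 8 or above before centring, and 33.4% of all such genes were lower. Tulp3, the adaptor that brings receptors into the cilium with IFT-A, fell by 0.84 ± 0.07 (limma, adjusted p = 4.37e-04), and Arl3 and Pde6d, which release and carry lipidated ciliary proteins, were at -0.43 ± 0.05 and -0.51 ± 0.08. Of 25 further genes of the transition zone and the distal appendages that anchor the basal body 12 were lower. They included Ttbk2, the kinase that starts cilium assembly (-0.76 ± 0.05; limma, adjusted p = 3.05e-04), Tmem138 (-0.52 ± 0.06) and Cby1 (-0.33 ± 0.05). Their median was -0.19.

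**Figure D3:**
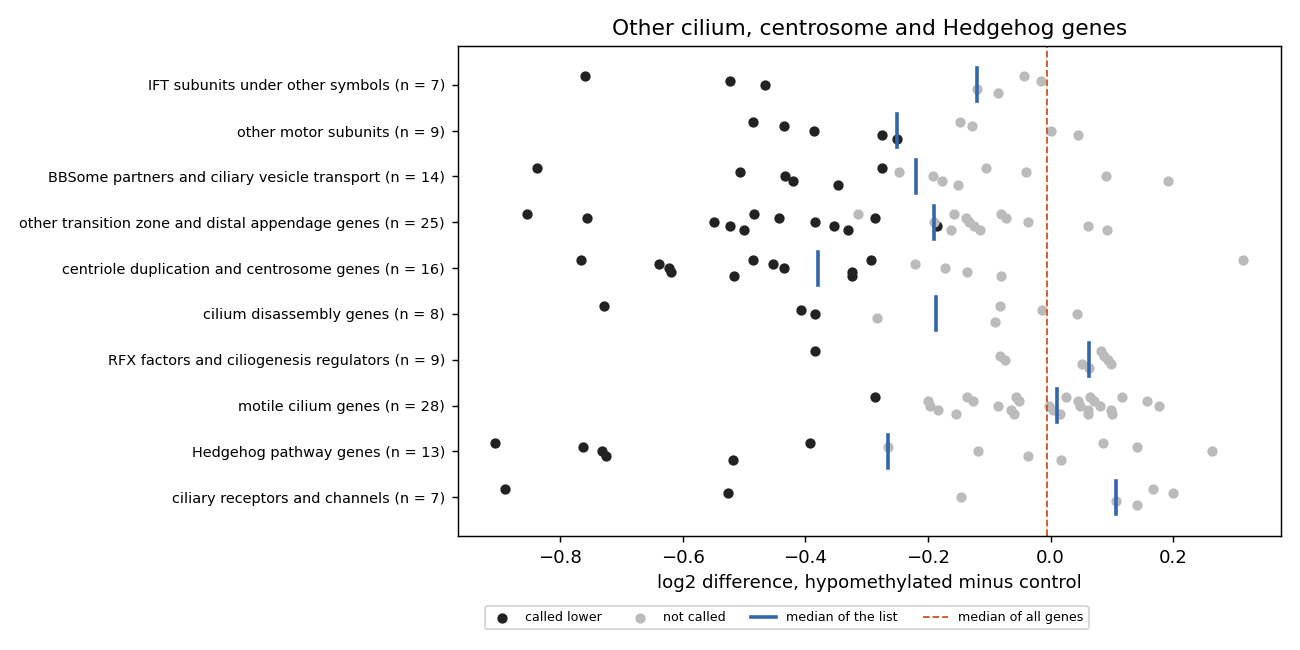
Log2 difference, hypomethylated minus control (x axis), for each measured gene of 10 lists outside the rule (rows); black points passed as lower at an adjusted p of 0.05, grey points did not pass, blue bars are list medians and the dashed line is the median of all genes. The motile cilium list has 1 black point among 28 and lies around 0, while the centriole and centrosome list has 11 among 16. Over all genes 21.3% passed as lower. Before centring, 2 of the 28 and 10 of the 16 were taken to be at 8 or above. Of all genes so taken 33.4% passed as lower, and how far this bears on the 2 lists was not tested.

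Genes of motile cilia stood near 0. Of 28 measured 1 was lower and none higher (0 at an unadjusted p under 0.05 and with robust eBayes), with a median of 0.01. The lower gene was Dnaaf2, an assembly factor of axonemal dyneins (-0.29 ± 0.06 (SE); limma, adjusted p = 0.00823); Dnah11, a dynein heavy chain, and Rsph9, a radial spoke head gene, were at -0.20 ± 0.08 and -0.18 ± 0.07 and did not pass. The number of lower genes was 2 without hypomethylated replicate 2 and 5 with array weights. Of the 28 genes 2, Dnaaf2 and Tppp3, were taken to have been at 8 or above before centring, as were 10 of the 16 centriole and centrosome genes described further on. Of all genes so taken 33.4% were lower, and of all genes 21.3%. How far the level before centring bears on the counts of these 2 lists was not tested. Foxj1, the main activator of motile ciliogenesis, was at -0.04, -0.07 and 0.04 in the control and 0.07, 0.21 and -0.06 in the hypomethylated tumours (0.10 ± 0.08; limma, adjusted p = 0.418). Of 9 RFX factors and other ciliogenesis regulators only Rfx3 passed, and none was higher (0 at an unadjusted p under 0.05 and with robust eBayes). Rfx3, an RFX factor that binds the X-box, was at 0.13, 0.25 and 0.08 in the control and -0.23, -0.38 and -0.08 in the hypomethylated tumours. It fell by 0.38 ± 0.09 (limma, adjusted p = 0.0162) and no longer passed when control replicate 1 or control replicate 2 was left out. Rfx1 and Rfx2 were at 0.09 ± 0.06 and -0.07 ± 0.08.

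Of 13 Hedgehog genes 6 were lower, against 21.3% of all genes, and none higher (1 at an unadjusted p under 0.05 and 0 with robust eBayes). With array weights 1 passed as higher, and without hypomethylated replicate 1 Ihh did. Ptch1, the receptor that leaves the cilium on activation and is itself a target, was at 0.38, 0.33 and 0.52 in the control and -0.33, -0.61 and -0.53 in the hypomethylated tumours, and fell by 0.91 ± 0.09 (SE; limma, adjusted p = 7.64e-04). Gpr161, a ciliary receptor that represses the pathway, fell by 0.72 ± 0.06 (limma, adjusted p = 4.28e-04) and the transcription factor Gli3 was at -0.76 ± 0.12. Gli1, the usual target gene, was at -0.02, -0.10 and -0.04 in the control and 0.05, 0.03 and 0.02 in the hypomethylated tumours, a difference of 0.09 ± 0.05 that did not pass (limma, adjusted p = 0.273). Of 7 measured ciliary receptors and channels 2 were lower (28.6%) and none higher (1 at an unadjusted p under 0.05 and 0 with robust eBayes). The 2 were Adcy3, the adenylate cyclase of cilia, at -0.53 ± 0.08, and Pdgfra, a growth factor receptor of cilia and also a fibroblast marker, at -0.89 ± 0.16. The median of the 7 genes, 0.11, lay above 0, and 1 passed as higher under quantile normalization.

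Genes of the centriole and centrosome were lower in 11 of 16 cases, with a median of -0.38 and none higher (0 at an unadjusted p under 0.05 and with robust eBayes). Over all genes 21.3% were lower. Cep97, a cap of the centriole that holds back cilium growth, fell by 0.77 ± 0.07 (SE; limma, adjusted p = 5.82e-04), and Tubg1, the gamma-tubulin gene, and Cetn2, a centrin gene, were each at -0.62 ± 0.07. The number of lower genes was 6 without control replicate 1 and 7 without control replicate 2 or hypomethylated replicate 2. Of 8 genes listed for cilium disassembly, which included Bbof1, a gene of basal body orientation, 3 were lower (37.5%). Before centring 7 of these 8 were taken to be at 8 or above, and 33.4% of all such genes were lower. The 3 were Hdac6, the tubulin deacetylase (-0.73 ± 0.05, limma, adjusted p = 3.08e-04), the mitotic kinase gene Plk1 (-0.38 ± 0.07) and Kif24 (-0.41 ± 0.10). The call of Kif24, a kinesin that works with Cep97 and Ccp110, did not survive leaving out control replicate 1, control replicate 2 or hypomethylated replicate 2.

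Many cell cycle and stromal markers were lower as well. Of 15 measured proliferation genes 12 were lower, against 21.3% of all genes. Mki67, Top2a and Birc5 were at -0.20 ± 0.10, -0.18 ± 0.11 and -0.03 ± 0.13 (SE). Their groups overlapped and they did not pass. The mean of the 15 genes was 0.247, 0.346 and 0.104 in control replicates 1 to 3. In hypomethylated replicates 1 to 3 it was -0.276, -0.350 and -0.115. As for the cilium genes, control replicate 2 was the highest and hypomethylated replicate 2 the lowest of the 6. Fibroblasts commonly carry a cilium, and 8 of 12 fibroblast markers were lower, with means of 0.10, 0.314 and 0.488 in the control and -0.103, -0.611 and -0.372 in the hypomethylated tumours. Here control replicate 3 was the highest control, whereas for the cilium genes it was the lowest. Hypomethylated replicate 2 was the lowest tumour for fibroblast markers as for the cilium genes. The number of lower fibroblast markers was 5 when control replicate 2 or control replicate 3 was left out and 4 when hypomethylated replicate 3 was. Of 9 smooth muscle markers 4 were lower, with means from 0.106 to 0.320 in control and from -0.298 to -0.085 in hypomethylated tumours. Of 9 endothelial markers 4 were lower and 1, Tek, higher, with means from 0.039 to 0.163 and from -0.349 to -0.005; 2 were lower when any one of control replicates 2 and 3 and hypomethylated replicate 3 was left out.

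Of 11 epithelial markers 9 were higher, against 10.7% of all genes, and none lower (0 at an unadjusted p under 0.05 and with robust eBayes). Their means ran from -0.532 to -0.247 in control and from 0.225 to 0.379 in hypomethylated tumours. Krt20, at 3.52 ± 0.66 (SE), weighed most on these means. The list medians ran from -0.225 to -0.143 in control and from 0.146 to 0.317 in hypomethylated tumours. Epcam and Krt18, at 0.06 ± 0.06 and -0.02 ± 0.06, had overlapping groups and did not pass. Leukocyte markers, with 2 of 11 lower (18.2%, against 21.3% of all genes) and 1 higher, had means from -0.135 to 0.355 and from -0.519 to 0.467, so the groups overlapped. Without hypomethylated replicate 1, 7 leukocyte markers were lower, and 0 without any other single tumour or with robust eBayes (3 at an unadjusted p under 0.05). None of the 8 enteric neuron and glia markers passed in limma (1 at an unadjusted p under 0.05; 0 with robust eBayes), with means from -0.262 to 0.062 and from -0.044 to 0.049; without control replicate 2, 1 was lower, and without control replicate 3, 1 was higher. The part of proliferation and of stromal or epithelial content in the lower cilium genes was not tested.

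**Figure D4:**
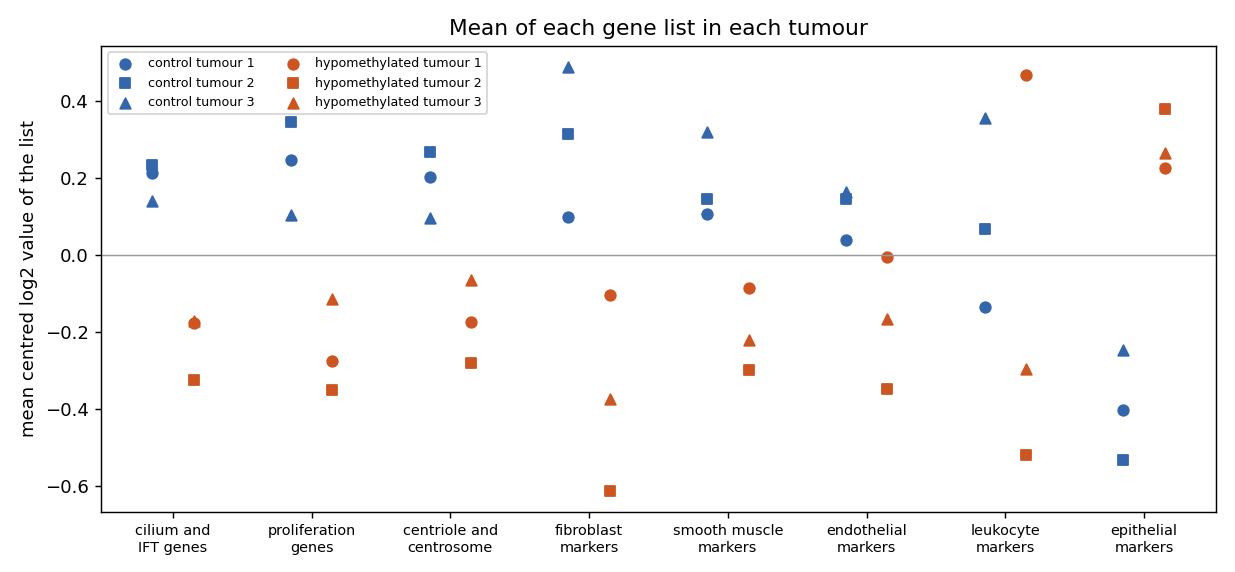
Mean centred log2 value (y axis) of the 40 cilium and IFT genes and of 7 other lists (x axis) in each control tumour (blue) and hypomethylated tumour (orange), with a marker shape for each replicate. In the cilium, proliferation and centrosome lists replicate 2 is outermost in each genotype, and so it is for epithelial markers, in the opposite direction. Control replicate 3 is the highest control for fibroblast, smooth muscle, endothelial, leukocyte and epithelial markers. Hypomethylated replicate 2 is the lowest tumour in every list shown except the epithelial markers, where it is the highest.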

How the data were processed

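The authors deposited 1 table of log2 values, 28856 probe sets by 6 arrays, per the file headers a row for each probe set; the log base, normalization and summary method were not given in the sources used here. Every probe set was centred on its median (100% of rows within 1e-06 of 0). Probe sets with exactly 1 gene symbol in the platform annotation (21789) were averaged to 19938 genes. Of the 40 genes 38 had 1 probe set, and all matched RefSeq by Entrez number.

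Hypomethylated and control tumours were compared with limma 3.58.1 (lmFit, eBayes without a trend) in R 4.3.3, two-sided, at a p under 0.05 after Benjamini-Hochberg adjustment over all genes; the moderation added 3.02 prior degrees of freedom. The script was tested on simulated data. Values at 8 or above before centring were inferred for the 48.4% of rows in which each value is a multiple of 2 to the power -20; this filter was added after the data were seen. The planned filter on low values could not be run, as no level is kept. Lists and members were chosen with earlier results of these data known. Values in each tumour are given for the 3 genes of each complex with the smallest p, and outside the 40 up to 3 genes per list, those of smallest p, are named, and 8 genes in any case; other names (such as further IFT subunits, Rfx1, Rfx2, Ihh, Tek and Bbof1) were added after their values were seen. Promoter windows of 300 bases come from RefSeq (GRCm38.p6). Alternatives were a replicate block, quantile normalization, median centring, array weights, robust eBayes, genes with 1 probe set, other thresholds and leaving out each tumour. Arrays have no sequencing depth.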

Additional observations from a re-analysis of the deposited data

How the results depend on the processing

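The number of the 40 cilium and IFT genes that were lower was 27, 22 with the replicate block, between 26 and 29 under quantile normalization, median centring, array weights, robust eBayes and genes with 1 probe set, and 23 to 26 without any single tumour; it was 18 at an adjusted p of 0.01 and 29 at 0.10. Restricted to genes taken to be at 8 or above before centring it was 17 of 23, and 37.0% of all such genes were lower in that fit. The share of all genes that was lower also moved with the setting. It was 21.3% in the main fit, 13.6% with the replicate block, 11.6% at an adjusted p of 0.01 and 25.7% at 0.10. It ran from 18.4% under quantile normalization to 25.5% with array weights, and from 14% to 21.4% without any single tumour. Counts of the 40 genes or of the other lists alone therefore do not show how far they depart from all genes in a setting. No setting called any of the 40 higher, and 38 of the 40 stayed below 0 in each setting that included them. Of the 27 calls 21 were kept in all 13 settings apart from the other thresholds that included the gene. Those of Ift74 and Rpgrip1l were lost only with the replicate block, and 4 of the 13 other genes passed in some setting. The median difference of the other IFT subunits was -0.12, and -0.49 for the 2 of them taken to be at 8 or above. It ranged from -0.36, without hypomethylated replicate 3, to -0.050, without hypomethylated replicate 2. In the main fit this median was the value of 1 gene, Ttc30b, which itself ranged from -0.36 to 0.05 across settings. Why Ttc30b varied was not tested. The replicate number in the titles did not pair the tumours: same-numbered tumours had deviations from their group means that correlated at -0.29, -0.31 and -0.22 over all genes, and the block lowered the number of lower genes over all genes from 4256 to 2714. Quantile normalization moved the median difference of all genes from -0.01 to 0.02, and the restriction to genes at 8 or above to -0.11. The planned filter on low values was not run. No level or background signal is kept, so differences of dim genes may be understated.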
